A study of Ovis aries with 23 samples.

Results

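EYA3 (ENSOARG00000003071), a transcriptional coactivator of the thyrotropin beta-subunit gene TSHB, was followed through 23 RNA-seq samples of the sheep pars tuberalis (PT), as 1 gene of 25197 counted in each sample. The gene was taken by its name and identifier. All animals were neutered male Scottish blackface sheep, and they differed in the light regime before collection. A total of 5 samples came from short photoperiods (SPs), with short days and long nights, and 6 each from animals moved to long photoperiods (LPs) for 1, 7, or 28 days (LP day 1, LP day 7, and LP day 28). The age of the animals and the hour of collection for RNA-seq are not given in the sources used here, and the labels do not say whether each sample is a separate animal, so the p-values measure the spread between these samples. The labels number the samples of a group from 1, and odd and even numbers are given apart below because EYA3 differed between them. What an odd or an even number stands for is not stated, and the split was taken up with earlier results of these data known. Its tests describe these samples and are not independent evidence.

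EYA3 belongs to a family of proteins that bind no DNA themselves and act with DNA-binding partners, and that also carry a phosphatase domain. In the PT, the melatonin-responsive tissue on the pituitary stalk, EYA3 is known to work with the circadian factor TEF at the TSHB promoter. Thyrotropin from PT thyrotrophs acts on the neighbouring hypothalamus, where it raises the deiodinase DIO2 and so controls local thyroid hormone. Melatonin is secreted at night, its onset induces the clock repressor CRY1 in the PT, and EYA3 is known to peak in the hours that become light when days lengthen. In the RefSeq sheep annotation, which is of another assembly than the counts, EYA3 overlapped no other gene and lay between the long non-coding RNA LOC121818840 and XKR8, so no overlapping gene that could share its reads was listed.

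Expression is given as CPM, a gene's count scaled to the library's total, normalized over all samples for library composition by the trimmed mean of M values (TMM). Total counts ranged from 307952 in LP day 1 sample 4 to 4413929, with a median of 3332320. EYA3 was above the level of 3 counts in every sample and had between 12 counts, in LP day 1 sample 4, and 3341 counts, in LP day 7 sample 1. In that shallow library 3 counts equal 8.90 CPM, a limit that covers counting error only. LP day 1 samples 3 and 4 were the closest pair of any group, at a chi-square of 1.14 per gene against a median of 14.9 within LP day 1. They differed by more than sampling noise (chi-square test over 13202 genes, p = 2.79e-28) and were kept as 2 samples. The test cannot tell 2 sources from 2 libraries of 1 source, so whether they share a source was not settled. The shallow sample 4 also had low values, 1.75 to 7.16, with the other samples of LP day 1.

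EYA3 was low on SPs, with 37.1, 23.02, 28.3, 36.0, and 35.0 CPM in samples 1 to 5. At LP day 1 it stood at 60.4, 53.7, 30.3, 35.6, 20.4, and 75.6 CPM in samples 1 to 6. The 2 groups overlapped, and LP day 1 was the more spread (mean 45.99 ± 20.7 CPM, SD, n = 6) compared with SPs (31.9 ± 6.02 CPM, SD, n = 5). At LP day 7, samples 1, 3, and 5 had 969, 381, and 332 CPM, whereas samples 2, 4, and 6 had 30.9, 39.2, and 41.2 CPM. At LP day 28, samples 1, 3, and 5 had 407, 123, and 471 CPM, and samples 2, 4, and 6 had 37.6, 58.5, and 46.8 CPM. Thus, at both late time points the odd samples were all above the even samples, and the even samples lay inside the SP and LP day 1 range of 20.4 to 75.6 CPM.

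**Figure D1:**
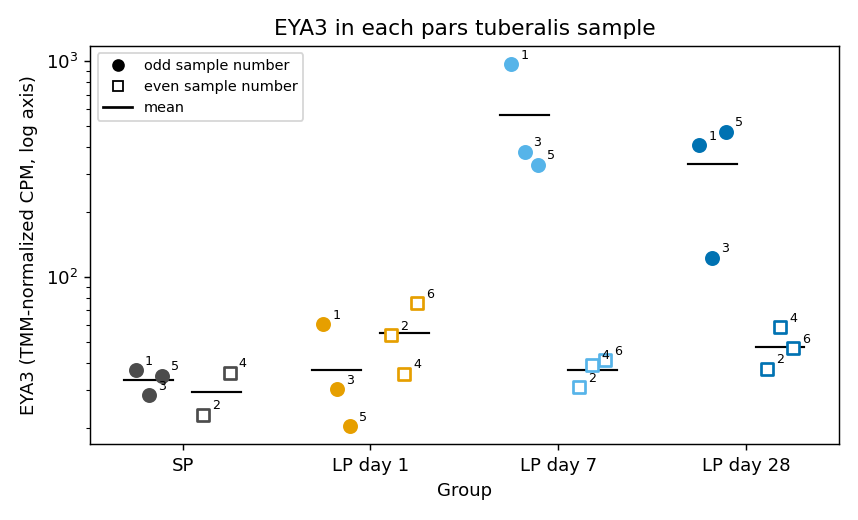
EYA3 in each of the 23 samples, in TMM-normalized CPM on a log axis, by group. Filled circles are odd and open squares even sample numbers, small digits give the sample number, and bars are means. The 6 odd samples of LP day 7 and LP day 28 (123 to 969 CPM) stand above all other samples (20.4 to 75.6 CPM).

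Ordered by mean level, EYA3 went from the even SP samples (29.5 ± 9.16 CPM, SD, n = 2) through the odd SP samples (33.4 ± 4.60, n = 3), the odd LP day 1 samples (37.0 ± 20.8, n = 3), the even LP day 7 samples (37.1 ± 5.47, n = 3), and the even LP day 28 samples (47.7 ± 10.5, n = 3) to the even LP day 1 samples (54.96 ± 20.01, n = 3). Neighbours among these 6 sets overlapped in range. The odd LP day 28 samples (334 ± 185 CPM, n = 3) and the odd LP day 7 samples (560 ± 355, n = 3) came next, apart from the rest, and overlapped with each other. Bulk RNA cannot tell apart a change in the number of cells that hold EYA3 from a change in the RNA per cell.

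Photoperiod groups were first compared with all samples, whatever their number, with the quasi-likelihood test of edgeR, and p-values were corrected over all genes tested by the Benjamini-Hochberg method (FDR). From SPs to LP day 28, EYA3 rose 5.94-fold (log2 fold change 2.57 ± 0.57, SE, FDR = 0.0481), as 1 of 100 genes called among 14929 tested (0.67%). This call was close to the threshold. It was lost when any SP sample, or LP day 28 sample 1, 3, or 5, was left out, with log2 fold changes between 2.08 and 2.67 and FDRs from 0.0680 to 0.142, and was kept without LP day 28 sample 2, 4, or 6. The log2 fold change from SPs to LP day 7 was larger, at 3.22 ± 0.78, but did not pass (FDR = 0.0777, 0.266% of genes called). Without LP day 7 sample 6 it passed, at 3.43 (FDR = 0.0449). The spread within LP day 7 was wide, with a mean of 299 ± 364 CPM (SD, n = 6), against 191 ± 196 CPM at LP day 28.

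The other 4 comparisons of all samples did not pass. For EYA3, the log2 fold change from SPs to LP day 1 was 0.55 ± 0.26 (FDR = 1). Here edgeR called 0 of 14920 genes (0%), 497 of them had an unadjusted p under 0.05, and DESeq2 called 2 genes. From LP day 1 to LP day 7 it was 2.66 ± 0.71 (FDR = 0.585, 0.0201% of genes called), and from LP day 1 to LP day 28 it was 2.03 ± 0.54 (FDR = 0.22, 0.216% called). From LP day 7 to LP day 28 the estimate was -0.64 ± 0.77 (FDR = 0.917, 0.00672% called). Its sign turned to 0.21 when LP day 7 sample 1 was left out.

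The separation by sample number was then tested. In LP day 7 and LP day 28 together, with the day as a term, EYA3 was 10.3-fold lower in even than in odd samples (log2 difference -3.36 ± 0.34, FDR = 4.86e-05). It had the fifth smallest p among 15595 genes, of which 154 were called (0.987%), 45 higher and 109 lower in even samples. In SPs and LP day 1 together, the same difference was 0.27 ± 0.26 (FDR = 1). In these early samples edgeR called 0 of 15930 genes (0%), 844 had an unadjusted p under 0.05, and DESeq2 called 2. The change of the even-odd difference between early and late samples was itself past the threshold for EYA3, at -3.63 ± 0.47 on the log2 scale (FDR = 0.000316, 5 of 16454 genes called, 0.0304%).

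A single fit with a mean for each group and parity, added after seeing the data, gave the difference at each time. Even minus odd was -0.18 ± 0.50 on SPs (FDR = 0.954), 0.64 ± 0.45 at LP day 1 (FDR = 0.964), -3.91 ± 0.44 at LP day 7 (FDR = 4.3e-05), and -2.81 ± 0.42 at LP day 28 (FDR = 0.0029). The shares of genes called in this fit were 0%, 0%, 0.134%, and 0.0304%. EYA3 thus differed by sample number at LP day 7 and at LP day 28 taken singly, in groups that did not overlap.

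Within odd samples alone, EYA3 rose 16.6-fold from SPs to LP day 7 (log2 fold change 4.05 ± 0.38, FDR = 0.00282, 0.246% of genes called) and 9.90-fold from SPs to LP day 28 (3.31 ± 0.40, FDR = 0.00436, 0.188% called). It also rose from LP day 1 to LP day 7 (3.90 ± 0.47, FDR = 0.0167, 0.0532% called) and from LP day 1 to LP day 28 (3.16 ± 0.46, FDR = 0.0138, 0.188% called). Between LP day 7 and LP day 28 the odd samples did not differ past the threshold (-0.74 ± 0.45, FDR = 0.641), and neither did SPs and LP day 1 (0.14 ± 0.33, FDR = 1).

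Within even samples no photoperiod comparison of EYA3 passed. The log2 fold change was 0.32 ± 0.23 from SPs to LP day 7 (FDR = 0.57, 0.223% of genes called) and 0.69 ± 0.25 from SPs to LP day 28 (FDR = 0.229, 0.656% called). From SPs to LP day 1 it was 0.98 ± 0.30 (FDR = 0.907, 0.0132% called), resting on 2 even SP samples. These estimates do not show that EYA3 stayed the same in even samples. The estimates were -0.67 ± 0.22 from LP day 1 to LP day 7 (FDR = 0.911, 0.04% called) and 0.37 ± 0.18 from LP day 7 to LP day 28 (FDR = 0.994, 0.0199% called). The test of the difference between the even and the odd change passed from LP day 1 to LP day 7 (-4.55 ± 0.62 on the log2 scale, FDR = 0.00202, 0.0182% of genes called). The test did not pass from SPs to LP day 7 (-3.72 ± 0.65, FDR = 0.0671, 0% called), nor from LP day 1 to LP day 28 (-3.45 ± 0.61, FDR = 0.0657, 0.00608% called) or from SPs to LP day 28 (-2.62 ± 0.64, FDR = 0.614).

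**Figure D2:**
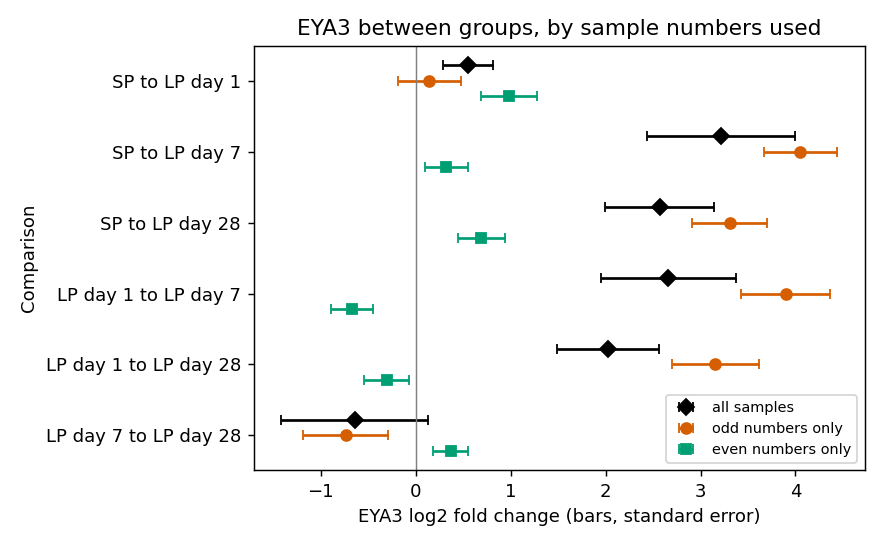
Log2 fold changes of EYA3 (points) with standard errors (bars) for 6 photoperiod comparisons, from all samples, odd samples only, and even samples only. Changes from SPs and LP day 1 to LP days 7 and 28 lie between 3.16 and 4.05 in odd samples and between -0.67 and 0.69 in even samples.

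TSHB, the gene for the hormone subunit that EYA3 is known to coactivate, did not divide with the sample number as EYA3 did. On SPs, TSHB stood at 207, 664, 47.0, 625, and 265 CPM in samples 1 to 5, so that both even samples were above the 3 odd samples, whereas EYA3 overlapped. At LP day 1, TSHB stood at 281, 181, 394, 288, 224, and 174 CPM in samples 1 to 6, and odd and even samples overlapped. At LP day 7, TSHB was 452, 380.2, and 289 CPM in samples 1, 3, and 5, where EYA3 was high, and 684, 1151, and 666 CPM in samples 2, 4, and 6, where EYA3 was low. Every even sample of that day was therefore above every odd sample for TSHB, the opposite order to EYA3. At LP day 28, TSHB reached 1580.4, 1151, and 1069.6 CPM in samples 1, 3, and 5 and 1326, 921, and 1257 CPM in samples 2, 4, and 6, and these ranges overlapped.

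From LP day 1 to LP day 28, TSHB rose with a log2 fold change of 2.25 ± 0.18 (FDR = 5.51e-07), in odd samples (2.08 ± 0.22, FDR = 0.00155) and in even samples (2.51 ± 0.19, FDR = 3.24e-06, 0.0803% of genes called). EYA3 over the same interval rose in odd samples, whereas its estimate in even samples was -0.31 ± 0.24 (FDR = 1). TSHB also rose from SPs to LP day 28 in odd samples (2.87 ± 0.45, FDR = 0.0262) and, from a higher SP level, in even samples (0.86 ± 0.16, FDR = 0.0286), although with all samples together it missed the threshold (1.75 ± 0.41, FDR = 0.0615). Between LP day 7 and LP day 28, TSHB rose in odd samples (1.77 ± 0.18, FDR = 0.00294, 0.0335% called), where the EYA3 estimate was below 0. Even samples alone also showed a fall of TSHB from SPs to LP day 1 (-1.65 ± 0.20, FDR = 0.00228), as 1 of 2 genes called, and a rise from LP day 1 to LP day 7 (2.03 ± 0.23, FDR = 0.0019), where odd samples gave 0.79 ± 0.45 (FDR = 1) and 0.31 ± 0.23 (FDR = 0.81). The difference between the even and the odd change did not pass for either interval (-2.46 ± 0.54, FDR = 0.811, and 1.73 ± 0.51, FDR = 0.663).

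Even minus odd for TSHB was 0.52 ± 0.22 over LP days 7 and 28 (FDR = 0.411). In the fit by group and parity it was 1.90 ± 0.39 on SPs (FDR = 0.387), the second smallest p of that test, -0.56 ± 0.37 at LP day 1 (FDR = 0.958), 1.17 ± 0.35 at LP day 7 (FDR = 0.296), and -0.12 ± 0.35 at LP day 28 (FDR = 0.995).

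**Figure D3:**
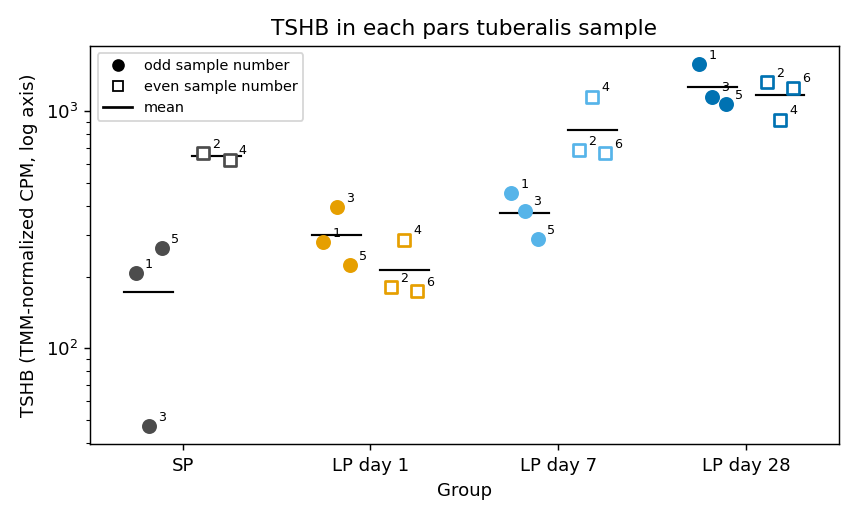
TSHB in each of the 23 samples, in TMM-normalized CPM on a log axis, by group, with filled circles for odd and open squares for even sample numbers and bars for means. At LP day 7 the even samples (666 to 1151 CPM) are above the odd samples (289 to 452 CPM), and at LP day 28 both lie between 921 and 1580.4 CPM.

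Because EYA3 fell into 2 separate ranges at the late time points, its relation to TSHB between samples was computed within sets, on deviations of log2 CPM from group means. Exact two-sided permutation tests exchanged samples only within a group, and the 6 relations of EYA3 to TSHB and CRY1 were corrected together. In the 6 odd late samples, Pearson's r between EYA3 and TSHB was 0.52 (exact permutation p = 0.333, adjusted p = 0.639) and Spearman's rho 0.43 (p = 0.528). Without the 2 samples farthest from the median of TSHB, r was -0.16, so its sign rested on those samples. In the 6 even late samples, r was -0.26 (exact permutation p = 0.556, adjusted p = 0.639) and rho -0.60 (p = 0.278), with r = -0.90 without the 2 farthest. In the 11 SP and LP day 1 samples, r was -0.14 (exact permutation p = 0.5259, adjusted p = 0.639) and rho -0.42 (p = 0.157), with r = -0.30 without the 2 farthest. None of these relations passed. With 6 late samples the smallest p the design allows is 0.0278, which corrects to 0.167 if it stands alone among the 6 relations, so a single relation in 6 late samples could not pass and the values say nothing of its absence.

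CRY1, a repressor of the core clock, divided the late samples by number in the opposite direction to EYA3. At LP day 7, CRY1 was 23.8, 23.2, and 23.2 CPM in samples 1, 3, and 5 and 302, 298, and 229 CPM in samples 2, 4, and 6. At LP day 28 the odd samples had 29.3, 28.7, and 16.9 CPM and the even samples 242, 138, and 156 CPM. CRY1 was thus low wherever EYA3 was high. Even minus odd in the late samples was 3.18 ± 0.18 on the log2 scale (FDR = 2.28e-08). In the fit by group and parity, CRY1 did not pass at LP day 7 (3.57 ± 0.84, FDR = 0.103) or at LP day 28 (2.80 ± 0.83, FDR = 0.534). None of the 6 photoperiod comparisons passed for CRY1, with a log2 fold change of -0.81 ± 0.67 from SPs to LP day 28 (FDR = 0.638).

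Among the early samples CRY1 also fell into 2 ranges, but these did not follow the sample number. On SPs, CRY1 stood at 22.5, 206, 22.8, 237, and 406 CPM in samples 1 to 5. At LP day 1 it stood at 28.3, 235, 261, 282, 209, and 34.5 CPM in samples 1 to 6. Over all samples, 10 had 16.9 to 34.5 CPM and 13 had 138 to 406 CPM, and 4 of the 10 were early samples. The pair of low-CRY1 samples on SPs, 1 and 3, had 37.1 and 28.3 CPM of EYA3, inside the SP range. At LP day 1, the low-CRY1 samples 1 and 6 had 60.4 and 75.6 CPM of EYA3, the 2 highest values of that day. Low CRY1 therefore occurred without high EYA3 on SPs. No test was made between samples divided by CRY1, since CRY1 is itself a measured outcome. The same limit holds below for the correlation within the higher CRY1 range and for CRY1 as a covariate. Even minus odd for CRY1 was 0.29 ± 0.66 in the early samples (FDR = 1), and its change between early and late samples was 2.90 ± 0.80 (FDR = 0.356).

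**Figure D4:**
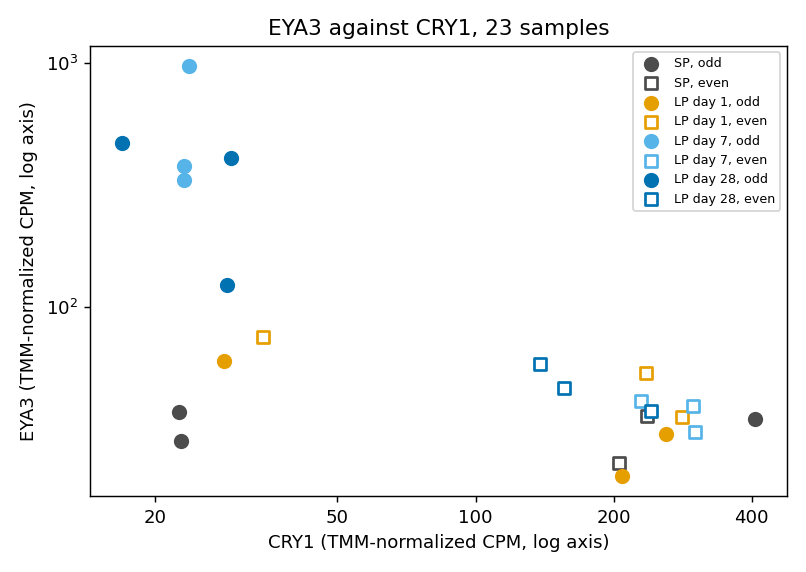
EYA3 against CRY1 in 23 samples, both in TMM-normalized CPM on log axes. Filled circles are odd and open squares even sample numbers, and colours are groups. The 6 samples with EYA3 of 123 CPM or more all lie in the lower CRY1 range, which also holds 4 SP and LP day 1 samples with EYA3 between 28.3 and 75.6 CPM.

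Within a range of CRY1, EYA3 and CRY1 showed no relation that passed. In the 6 even late samples, r was -0.86 (exact permutation p = 0.0833, adjusted p = 0.5) and rho -0.94 (p = 0.0833), with r = -0.66 without the 2 samples farthest from the median of CRY1. In the 6 odd late samples, r was -0.40 (exact permutation p = 0.639, adjusted p = 0.639) and rho -0.20 (p = 0.806), and it turned to 0.99 over the 4 samples left without the 2 farthest. In the 7 SP and LP day 1 samples of the higher CRY1 range, r was 0.40 (exact permutation p = 0.333, adjusted p = 0.639) and rho 0.43 (p = 0.375), with r = 0.39 without the 2 farthest.

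Genes of the EYA family and of partner families were examined next. Symbols could be paired with identifiers only through supplementary gene lists of the study, which name genes it had called changed in some comparison, so the paired members of each list below are not an unbiased sample of it. Of 12 genes listed for EYA proteins and their partner families, 4 were paired, EYA3 among them. The other 3 passed in none of the 6 photoperiod comparisons of all samples and the 3 tests by sample number, in which 0% to 0.987% of all genes were called. SIX2, a homeodomain factor of the family that EYA proteins bind, had 285 ± 67.6 CPM on SPs (SD, n = 5) and 472 ± 107 CPM at LP day 28 (n = 6), a log2 fold change of 0.72 ± 0.17 (FDR = 0.0615). Its late even-odd difference was -0.06 ± 0.18 (FDR = 0.958). SIX6, another factor of that family, gave -0.25 ± 0.20 (FDR = 0.758). EYA4, a paralog of EYA3, was low, between 0.484 and 8.19 CPM in all samples, with a late even-odd difference of 0.70 ± 0.36 (FDR = 0.558). The median over the 4 genes was -0.16, against 0.00062 over all genes tested. It includes EYA3 itself, at -3.36, so it does not describe the other 3 genes alone.

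Of 10 genes of the thyrotropin axis, 8 were paired and 1 differed between even and odd late samples, where 0.987% of all genes were called. TSHR, the thyrotropin receptor, was higher in even samples by 2.19 ± 0.20 on the log2 scale (FDR = 1.94e-05), with 46.1 to 115 CPM in even and 10.7 to 24.2 CPM in odd samples. The median over the 8 genes was -0.06. CGA, the alpha subunit that pairs with TSHB, did not pass (0.03 ± 0.11, FDR = 0.963). SLCO1C1, a thyroid hormone transporter, rose from SPs to LP day 7 (2.21 ± 0.18, FDR = 1.47e-05) and to LP day 28 (1.80 ± 0.14, FDR = 2.65e-06), and its late even-odd difference was 0.02 ± 0.14 (FDR = 0.981). THRA, a thyroid hormone receptor, fell from SPs to LP day 28 (-0.44 ± 0.08, FDR = 0.0169).

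Among 13 transcription factors and cofactors of thyrotrophs, 5 were paired (TEF, DBP, POU1F1, PITX1, and the histone methyltransferase SUV39H2), and 2 of them passed, both lower in even late samples, against 0.987% of all genes called. TEF, which binds the TSHB promoter with EYA3, differed by -0.58 ± 0.10 (FDR = 0.00576), and the related factor DBP by -0.90 ± 0.14 (FDR = 0.00262). The median over the 5 was -0.34. None of the 5 passed from SPs to LP day 7 or LP day 28.

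Several clock genes also divided the late samples. Of 24 genes of the circadian clock, 13 were paired, with 1 (CRY1) higher and 5 lower in even late samples, against 0.987% of all genes called in either direction, and a median of -0.40. CIART, a repressor of the clock, was lower by 2.01 on the log2 scale (-2.01 ± 0.27, FDR = 0.00078). NR1D1, the nuclear receptor REV-ERB alpha, differed by -1.55 ± 0.25 (FDR = 0.00262), and BHLHE41, a repressor of CLOCK activity, by -1.25 ± 0.24 (FDR = 0.012). TEF and DBP, which belong to both lists, make up the 5. The positive factors ARNTL (-0.10 ± 0.14, FDR = 0.881) and ARNTL2 (-0.30 ± 0.42, FDR = 0.887) did not pass. ARNTL2 rose from SPs to LP day 7 (3.70 ± 0.71, FDR = 0.0463) and LP day 28 (4.47 ± 0.59, FDR = 0.000785), and ARNTL fell from SPs to LP day 28 (-0.86 ± 0.19, FDR = 0.0481). In the fit by group and parity, even minus odd passed at LP day 7 for NR1D1 (-2.13 ± 0.31, FDR = 0.0013), BHLHE41 (-1.92 ± 0.24, FDR = 0.000127), and CIART (-2.09 ± 0.39, FDR = 0.0206). At LP day 28 none of these passed (NR1D1 -0.96 ± 0.31, FDR = 0.609, BHLHE41 -0.55 ± 0.24, FDR = 0.827, CIART -1.91 ± 0.40, FDR = 0.0898). On that day BHLHE41 overlapped between odd (44.9 to 93.5 CPM) and even (34.9 to 55.8 CPM) samples.

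Of 16 genes of melatonin and cAMP signalling, 3 were paired and 2 were lower in even late samples, against 0.987% of all genes called, with a median of -1.48. MTNR1A, the melatonin receptor of the PT, differed by -3.30 ± 0.40 (FDR = 0.000273), with 24.1 to 41.5 CPM in the odd and 0.537 to 2.06 CPM in the even samples of LP day 7. PDE10A, a phosphodiesterase that breaks down cAMP, differed by -1.48 ± 0.18 (FDR = 0.000273). At LP day 28, MTNR1A had 14.5 to 27.5 CPM in the odd and 1.35 to 7.02 CPM in the even samples. In the fit by group and parity, MTNR1A passed at LP day 7 (-4.66 ± 0.76, FDR = 0.00555) but not at LP day 28 (-2.24 ± 0.67, FDR = 0.534). In SPs and LP day 1, none of the paired members of these 5 lists passed between even and odd samples. This describes the sample number only, which CRY1 did not follow in those groups. MTNR1A had 12.3 to 19.9 CPM in the low-CRY1 samples of SPs and LP day 1 and 0 to 4.01 CPM in the others. TSHR had 10.3 to 29.41 CPM in the same low-CRY1 samples and 29.46 to 94.9 CPM in the others. NR1D1 had 110 to 152 CPM in the low-CRY1 samples and 64.3 to 108 CPM in the others. PDE10A (18.8 to 53.2 against 12.5 to 26.7 CPM) and CIART (9.08 to 13.3 against 4.54 to 12.4 CPM) overlapped. BHLHE41 (27.4 to 47.0 against 23.7 to 41.9 CPM), TEF, and DBP overlapped too. These divisions and overlaps were not tested. The change of the even-odd difference between early and late samples passed for EYA3 and for no other paired member. The hour of collection was not known for any sample, so time of day and sample number cannot be told apart here.

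By level over all 23 samples, the genes most like EYA3 were ACSL4 and ATP8B1. Likeness was the Pearson correlation of log2 CPM across samples among 15653 genes, 1121 of them with a symbol. It is a description without a test, since the samples share the late odd samples as one high set. Of 27 genes with r above 0.8, 17 had a symbol. ACSL4, which attaches coenzyme A to long-chain polyunsaturated fatty acids, had r = 0.92, with 462 to 1509 CPM in the odd late samples, 78.2 to 171 CPM in the even late samples, and 75.5 to 175 CPM in SPs and LP day 1. ATP8B1, a phospholipid flippase, also had r = 0.92, with 12.5 to 33.6 CPM against 3.43 to 9.92 and 2.55 to 8.62 CPM. ELOVL6, a fatty acid elongase, had r = 0.88, with 18.05 to 37.9 CPM against 3.08 to 13.6 and 2.37 to 10.9 CPM. For these 3 genes, as for EYA3, the odd late samples lay above all others.

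Among genes with a symbol, CIART (r = 0.89), BHLHE41 (r = 0.88), and NR1D1 (r = 0.86) of the clock list were also in the 10 highest. So were FNDC3A (r = 0.85), the zinc transporter SLC39A6 (r = 0.85), the chemokine CXCL16 (r = 0.84), and the phosphodiesterase PDE3A (r = 0.83). Genes without a symbol lay between them, and PDE3A ranked 13 among all genes searched. NR1D1 ranged from 107 to 458 CPM in the odd late samples, 67.7 to 102 CPM in the even late samples, and 64.3 to 152 CPM in SPs and LP day 1, so that its early samples overlapped with the odd late ones, unlike those of EYA3. At the other end, CRY1 had the lowest correlation of any gene with a symbol, followed by MTERF2 (r = -0.69), GYG1 (r = -0.63), DRD1 (r = -0.63), and TEKT1 (r = -0.62). On deviations from group means, 8 of the 10 highest with a symbol were again among these, with TNFRSF12A (r = 0.83) and NAB2 (r = 0.82) in place of FNDC3A and PDE3A. The lowest with a symbol were NLRP12 (r = -0.79), GYG1 (r = -0.78), TSHR (r = -0.78), ZNF438 (r = -0.76), and PPP1R3A (r = -0.76).

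**Figure D5:**
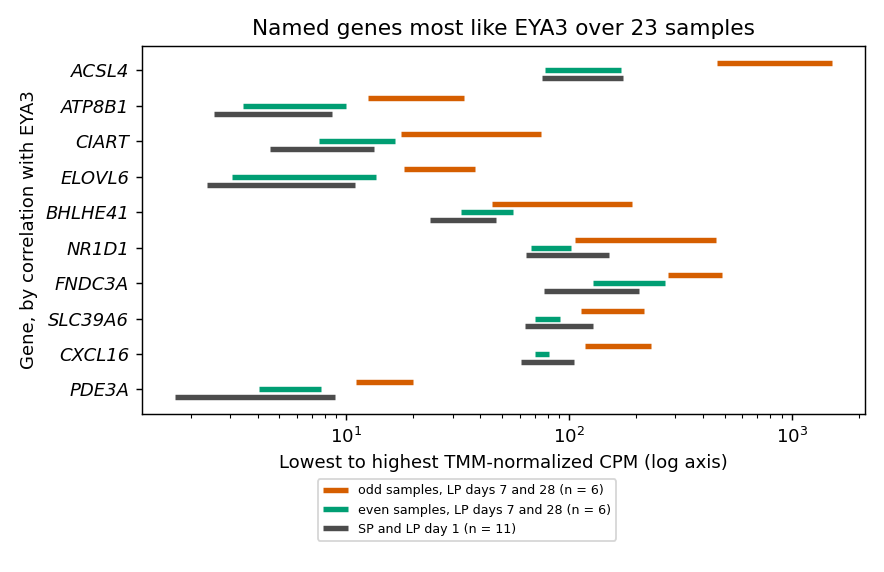
Lowest to highest TMM-normalized CPM (log axis) of the 10 named genes whose levels were most like EYA3 over 23 samples, in the 6 odd and 6 even samples of LP days 7 and 28 and the 11 samples of SPs and LP day 1. ACSL4 spans 462 to 1509 CPM in the odd late samples and 75.5 to 175 CPM in all others.

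The labelled tissue and the markers of other cells were checked beside these results. The 4 thyrotroph markers (TSHB, CGA, CHGA, and MTNR1A) summed to 6707 to 15057 CPM. Among them CHGA fell from SPs to LP day 7 (-1.14 ± 0.14, FDR = 0.00215) and to LP day 28 (-1.69 ± 0.15, FDR = 1.28e-05). TSHB and MTNR1A varied as given above, so this sum is not a fixed measure of thyrotrophs. CGA alone gave 3886 to 11559 CPM of it. The study calls the alpha subunit a common one and also places CHGA in other hormone cells, of the pars distalis. The sum is therefore not specific to thyrotrophs either. The 8 paired markers of pars distalis hormone cells summed to 35061 to 272796 CPM, so transcripts of pars distalis hormone genes were present in every sample. The part of these transcripts in the EYA3 values was not tested beyond the covariate below. In the late samples the pars distalis sum was 46616 to 113354 CPM in odd and 75428 to 176792 CPM in even samples of LP day 7, and 130087 to 272796 CPM against 74700 to 253028 CPM at LP day 28, so it overlapped on both days. Between groups, its mean of 180808 CPM at LP day 28 compared with 101167 CPM on SPs, 109125 CPM at LP day 1, and 100595 CPM for LP day 7, and in odd samples it was 86534 CPM at LP day 7 and 192144 at LP day 28, days between which TSHB rose in odd samples. In LP day 28 sample 3, PRL alone made up 242617 of the 272796 CPM. None of the 8 markers passed in the photoperiod comparisons of all samples, with PRL at 1.09 ± 0.37 from SPs to LP day 28 (FDR = 0.192). For that comparison POU1F1 (0.51), TBX19 (0.43), and GNRHR (0.00123) also had positive estimates. GH1 (-0.05), POMC (-0.08), LHB (-0.39), and FSHB (-0.76) had negative ones. The higher sum at LP day 28 therefore follows PRL and not all 8 markers. With GH1 as a covariate the EYA3 change from SPs to LP day 28 was 2.55 and missed the threshold (FDR = 0.0531). None of these 8 markers passed between even and odd late samples, with GH1 at 0.22 ± 0.25 (FDR = 0.85) and PRL at 0.16 ± 0.38 (FDR = 0.943). Of the other lists, 3 of 5 folliculostellate and glial markers, 3 of 3 pars intermedia markers, 1 of 3 tanycyte markers (DIO2), and 1 of 3 leukocyte markers were paired, and none passed. Markers of neurons, endothelium, and red blood cells were not paired. With GH1, a pars distalis marker, as a covariate, the late even-odd difference of EYA3 was -3.17 (FDR = 8.93e-05). Alignment numbers in the file headers did not repeat within samples 1 to 3 or within samples 4 to 6, but 8 of them occurred in both. The labels name no such sets. With samples 1 to 3 against 4 to 6 as a covariate, the difference was -3.40 (FDR = 0.000105).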

How the data were processed

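The authors deposited raw counts of reads per Ensembl sheep gene for each sample. Per the labels, tools included Bowtie and HTSeq and the build was Oar_v3.1; the headers have the form that featureCounts writes, so the counting program was not settled, and strand use is not given in the sources used here. Groups came from the sample labels. Tests used edgeR 4.0.16 under R 4.3.3. A gene entered a comparison if it exceeded 1 CPM in a number of samples no lower than the size of the smaller group. Libraries were TMM normalized, and quasi-likelihood tests were made at an FDR threshold of 0.05. Standard errors were derived from the log2 fold change and its F statistic. Single-sample log2 CPM used a prior count of 2.

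The gene, the split by sample number, and the lists were chosen with earlier results of these data known. Genes named are EYA3, TSHB, and CRY1, paired members of the lists, and the 10 genes with a symbol whose correlation with EYA3 was highest and the 5 where it was lowest, over levels and over deviations from group means. Symbols of 1259 genes were paired through supplementary lists of the study (29 symbols have more than 1 identifier), so 45 of 104 list symbols had an identifier. The correlations planned over all samples were replaced by correlations within sets, because EYA3 and CRY1 fall into separate ranges. The tests recovered changes set in simulated data, for SPs to LP day 7 and for even against odd late samples. The simulated SPs to LP day 7 data had no division within a group, so they do not cover a gene divided as EYA3 was. Alternatives were DESeq2 1.42.0, limma 3.58.1 with voom, exact tests, other normalizations and filters, covariates, subsets, and leaving out each sample. Sample numbers 1 to 3 against 4 to 6 as a covariate, GH1 for the even-odd tests, the single fit by group and parity, and the within-set correlations were chosen after seeing the data.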

Additional observations from a re-analysis of the deposited data

Results flagged for a closer look

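LP day 7 sample 1 had 969 CPM of EYA3. It stood apart from the other 5 samples of its group, with a gap of 0.627 of the group's range to the nearest of them, just over Dixon's critical value for 6 samples. A total of 12 groups of samples were examined in this way for EYA3, TSHB, and CRY1, and this was the only sample to stand out. Chance alone gives about 1 in 20 groups where values have a single normal spread. EYA3 at LP day 7 falls into 2 ranges, so that rate does not hold for it. The rule was applied to CPM and not to log2 CPM. There, sample 1 had 9.92, the nearest, sample 3, had 8.57, and the lowest, sample 2, had 4.98. Without this sample, the log2 fold change from SPs to LP day 7 was 2.36 in place of 3.22.

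The even-odd difference of EYA3 changed between the pooled SP and LP day 1 samples and LP days 7 and 28 by -3.63 on the log2 scale (FDR = 0.000316). The change from LP day 1 to LP day 7 in even samples minus that in odd samples was -4.55 (FDR = 0.00202). Both are tests of the difference itself, and the meaning of the sample number was not tested.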

How the results depend on the processing

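The even-odd difference of EYA3 at LP days 7 and 28 kept its direction and passed in 13 alternatives, from -3.91 (LP day 7 alone) to -2.80 (LP day 28 alone), and without each sample (-3.59 to -3.01). Its change from the early samples did so in 12 alternatives and 23 omissions (-3.87 to -3.29), whereas in the early samples it passed in none of 14 and turned to -0.20 on SPs alone. The rise from SPs to LP day 28 missed the threshold with robust estimation (2.57, FDR = 0.202), voom (1.95, 0.223), all groups in a single fit (2.57, 0.12), GH1 (2.55, 0.0531), CRY1 (1.75, 0.138), or sample numbers 1 to 3 against 4 to 6 (2.56, 0.0663) as a covariate, even samples only (0.69, 0.229), and SP samples 2, 3, and 5 only (2.72, 0.138). Omitting single samples gave 2.08 to 2.78. From SPs to LP day 7 it passed with DESeq2 (3.21, FDR = 0.0117), exact tests with a dispersion per gene (3.22, 0.00482) or a common one (3.22, 1.64e-48), parity as a covariate (2.52, 0.0396), and odd samples only (4.05). Omitting single samples gave 2.36 to 3.45. Odd samples only also passed from LP day 1 to LP day 7 (3.90) and LP day 28 (3.16). The exact test with a common dispersion passed from LP day 1 to LP day 7 (2.66) and LP day 28 (2.03) and from LP day 7 to LP day 28 (-0.64), and that with a dispersion per gene from LP day 1 to LP day 28 (2.05). The cause of these differences was not tested.

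Counts of genes called varied over alternatives from 0 to 68 for SPs to LP day 1, 6 to 492 for SPs to LP day 7 (DESeq2 357), 28 to 452 for SPs to LP day 28 (DESeq2 346), 1 to 150 for LP day 1 to LP day 7, 1 to 251 for LP day 7 to LP day 28, 12 to 262 for LP day 1 to LP day 28, and 21 to 263 for even against odd late samples. Deviations of same-numbered samples had mean correlations of -0.0411 to 0.0721 by comparison, with single values from -0.174 to 0.258. Samples of different numbers were not compared in this way, so whether the numbers pair the samples was not settled. With the number as a replicate block, the rise from SPs to LP day 28 was 2.25 (FDR = 0.0592, 40 genes called in place of 100), SPs to LP day 7 had 165 calls in place of 40, and no other EYA3 call changed. The correlation alternatives planned over all samples were not run, and no within-set correlation passed in any alternative. Depth limits LP day 1 sample 4 most, where EYA3 had 12 counts.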
